A study of Mus musculus with 6 samples.

Results

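The genes described are 10 cardiac transcription factors: Gata4, Gata6, Nkx2-5, Tbx5, Tbx20, Hand2, Mef2a, Mef2c, Mef2d and Srf. They were found by symbol among 52550 rows of the gene table, 1 row per symbol, and all 10 are among the 9907 genes tested. Left ventricular RNA of C57BL/6J mice aged 12 months was sequenced from 3 wild-type (WT) samples and from 3 that the labels give as PGC1alpha overexpression (group name PKI). PGC1alpha, the product of Ppargc1a, coactivates genes of mitochondria and oxidative metabolism. The promoter or cell type behind the overexpression is not given in the sources used here, and no treatment is named for either group. Samples are numbered in the labels with no word on whether they came from different animals, so the spread behind each p-value may be technical.

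These factors form the core network that specifies heart muscle cells in the embryo and keeps their genes active in the adult. GATA4 and GATA6 are zinc finger proteins, NKX2-5 is a homeodomain protein, TBX5 and TBX20 are T-box proteins and HAND2 is a basic helix-loop-helix protein. The MEF2 proteins and SRF share the MADS DNA-binding domain. They bind one another and act together on promoters of contractile, ion channel and natriuretic peptide genes, and several act on their own promoters.

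Values are FPKM, fragments scaled by transcript length and library size, so levels can be compared roughly between genes. The annotation behind those lengths is not given in the sources used here. Log2 changes are PKI minus WT of log2(FPKM + 1), a scale on which changes of low genes come out too small. A gene was called at an adjusted p under 0.05 by limma over all 9907 tested genes. Ppargc1a itself was at 14.2, 12.8 and 12.4 FPKM in WT. The samples labelled PKI gave 11.6, 11.8 and 11.4, all lower (log2 −0.16, adjusted p = 0.0967; −0.44, adjusted p = 0.00521 after the scaling below), so the deposited values do not show the labelled overexpression, and PKI stands throughout for the libraries so labelled. The median log2 change of all tested genes was 0.21, and 36.4% of them were called higher against 2.96% lower. After median-of-ratios scaling of the libraries, called "after scaling" below, that median was −0.02, with 7.82% called higher and 9.18% lower. A change near 0.21 as deposited is therefore the change of the typical gene. The library PKI 2 stood apart. All 12 hepatocyte genes of a list chosen after the values were seen were highest there, with Alb (albumin) at 34.7 FPKM against 1.64 to 1.99 in the other 5 libraries. Where leaving out PKI 2 changes a call or a direction among the factors, both values are given, as they are for several lists.

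Of the 10 factors, 2 were called higher in PKI, Tbx20 and Gata4, and 0 lower. Of all tested genes 39.4% were called in either direction. After scaling 1 factor was higher, Tbx20, and 1 lower, Mef2d, beside 17% of all tested genes in either direction. The median log2 change of the 10 was 0.20, beside 0.21 for all tested genes, and −0.08 after scaling, beside −0.02. All 3 PKI values lay above all 3 WT values for 5 factors (51.3% of all tested genes) and below for 0 (4.53%). After scaling this held upward for 1 (16.6% of tested genes) and downward for 4 (20.7%). As deposited, the 10 genes together summed to 90.6, 99.1 and 93.4 FPKM in WT against 111, 107 and 106 in PKI. These sums were not scaled, so they carry the shift of the typical gene.

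**Figure D1:**
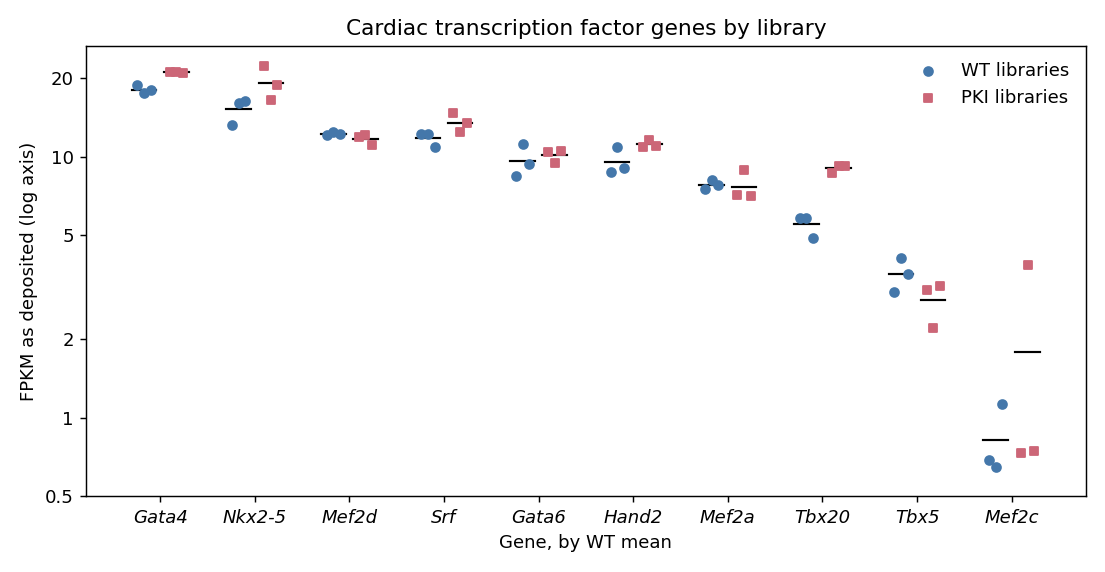
FPKM of each factor in each library on a log axis, with circles for the 3 WT libraries, squares for the 3 libraries labelled PKI and a line at each group mean. The Tbx20 groups are clearly separate, at 4.89 to 5.85 against 8.66 to 9.25, while 1 Mef2c value, 3.86 in PKI 2, stands far above the other 5.

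Promoter windows from RefSeq (GRCm38.p6), 250 bases before to 50 after a gene's start, were given for 7 of the 10 factors. They are shown for Srf and Mef2a because these hold the binding letters of their own family, for Hand2 as an example of GATA letters, which 1 of the 3 Mef2c windows holds too, and for Tbx20 because it is the factor that rose under both scalings. Each is printed 5′ to 3′ on the gene's strand, with the matches of the motif named beside it in capitals and other matches in lower case.
Srf (chr17:46556183-46556312, minus strand, CArG boxes in capitals): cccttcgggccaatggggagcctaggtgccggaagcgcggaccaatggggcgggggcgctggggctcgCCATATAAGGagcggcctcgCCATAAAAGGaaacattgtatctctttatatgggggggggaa
Mef2a (chr7:67372841-67372870, minus strand, MEF2 site in capitals): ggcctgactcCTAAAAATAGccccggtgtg
Hand2 (chr8:57320733-57320882, plus strand, GATAA or its reverse complement in capitals): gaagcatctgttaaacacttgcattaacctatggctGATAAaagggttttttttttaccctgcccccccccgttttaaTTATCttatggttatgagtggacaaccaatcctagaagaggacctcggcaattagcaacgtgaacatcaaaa
Tbx20 (chr9:24774304-24774453, minus strand, no match of the motifs searched): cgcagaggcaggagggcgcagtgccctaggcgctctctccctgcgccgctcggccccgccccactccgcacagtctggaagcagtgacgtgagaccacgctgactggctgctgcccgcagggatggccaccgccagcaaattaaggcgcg
The Srf window held 2 CArG boxes, the SRF binding site, starting 82 and 62 bases before the start. Of 32851 windows of the same length, 1.63% held a CArG box and 6 held 2 or more. The MEF2 site of Mef2a begins 2 bases before the start and runs across it, and 0.557% of windows held such a site. The GATAA matches of Hand2 begin 214 and 172 bases before the start, and 25.4% of windows held at least 1. The Mef2a stretch also holds GGTGTG, 13 bases after the start, and the Hand2 stretch the reverse complement of AAGTG, 235 bases before it. The T-box letters GGTGTG, in 19% of windows, and the NKX2-5 letters AAGTG, in 46.4%, were searched on both strands too. Matches are descriptions of letters and do not show that a factor is bound.

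Of the T-box genes Tbx20 rose and Tbx5 did not pass the test. Tbx20 (ENSMUSG00000031965, chromosome 9: 24718138 to 24774303, minus strand, GRCm38) encodes a T-box factor that maintains adult heart muscle function. It was at 5.85, 5.84 and 4.89 FPKM in WT against 8.66, 9.23 and 9.25 in PKI. The groups do not overlap, and the lowest PKI value is well above the highest WT value. The mean rose from 5.52 ± 0.553 to 9.05 ± 0.337 FPKM (SD, n = 3 each), 1.64-fold, with a log2 change of 0.63 (SE 0.08, 95% interval 0.43 to 0.82, limma adjusted p = 0.00238). After scaling the change was 0.36 (adjusted p = 0.0214), with scaled values of 6.34, 6.46 and 5.44 in WT and 7.75, 8.15 and 8.39 in PKI.

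Tbx5 (ENSMUSG00000018263, chromosome 5: 119832668 to 119885219, plus strand), the factor mutated in Holt-Oram heart and limb malformation, went the other way without passing the test. It was at 3.03, 4.08 and 3.57 FPKM in WT against 3.10, 2.21 and 3.19 in PKI, and the groups overlap. Its log2 change was −0.26 (95% interval −0.57 to 0.06, adjusted p = 0.156), −0.13 without PKI 2, and −0.48 after scaling (adjusted p = 0.0539). The ratio of Tbx20 to Tbx5 within a library does not depend on how libraries are scaled. It was 1.93, 1.43 and 1.37 in WT and 2.79, 4.18 and 2.90 in PKI. Tbx5 thus made up 39.2% ± 4.38 of the pair's FPKM in WT and 23.8% ± 3.90 in PKI (SD, n = 3 each), 15.4 points lower, with no overlap. An exact permutation test (two-sided) returned p = 0.1, the smallest that 20 arrangements of 3 against 3 allow, and 0.5 after Benjamini-Hochberg adjustment over the 5 family shares tested.

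Since this is bulk tissue, more cells of a type and more RNA per cell cannot be told apart. Fibroblast and macrophage markers moved with Tbx20. Of 14 fibroblast markers 11 rose (78.6%, beside 36.4% of all tested genes; 10 after scaling, 71.4% beside 7.82%), and their summed level was 283 to 426 FPKM in WT and 586 to 667 in PKI. Of 10 tested macrophage markers 9 rose (8 after scaling), with sums of 73.7 to 113 and 219 to 236. The shares of endocardial and endothelial markers called higher were near or below that of all tested genes. Of 5 tested endocardial markers 2 rose (40.0%, and 0 after scaling), with sums of 10.3 to 19.2 and 17.6 to 24.4. Their median log2 change was 0.52, beside 0.21 for all tested genes, and 0.31 after scaling, beside −0.02. Of 13 endothelial markers 4 rose (30.8%, and 0 after scaling, with 1 lower), with sums of 161 to 169 and 178 to 198. Their median was 0.24, and −0.03 after scaling. Of 14 cardiomyocyte markers 4 rose and 3 fell (28.6% and 21.4%, beside 36.4% and 2.96% of all tested genes). Scaling left 1 of the 14 higher and 7 lower, beside 7.82% and 9.18% of all tested genes. Cardiomyocyte markers were thus lower more often than all tested genes in both fits. The cardiomyocyte sums as deposited were 18503, 19641 and 18708 FPKM in WT and 20298, 16155 and 19893 in PKI. These deposited sums overlap between the groups only through PKI 2, where Mb (myoglobin) was at 2753 against 5613 or more in each other library. The median log2 change of the cardiomyocyte markers was −0.01, beside 0.21 for all tested genes, and −0.31 after scaling, beside −0.02. The part of these cell types in the Tbx20 result was not tested. The defining cardiomyocyte markers Myh6, Tnnt2 and Actc1 were at 1773, 665 and 3691 FPKM in WT. Of 8 tested atrial markers 1 rose, Nppa, and 1 fell (beside 36.4% and 2.96% of all tested genes). Scaling left 1 higher and 2 lower (beside 7.82% and 9.18%). The median log2 change of the atrial markers was −0.57, beside 0.21 for all tested genes, and −0.79 after scaling, beside −0.02. Their sums of 285 to 502 FPKM in WT and 678 to 1515 in PKI are mostly Nppa. The atrial light chain gene Myl7 was at 74.3, 40.5 and 91.3 FPKM in WT against 6.61, 14.8 and 81.9 in PKI. All 5 tested red blood cell markers fell, as deposited and after scaling (beside 2.96% and 9.18% of all tested genes). Their deposited sums were 380.2 to 538 and 274 to 339. The part of these was not tested either. The summed epicardial markers stayed at 2.17 FPKM or less, and the skeletal muscle factors Myog, Myf5, Myf6 and Pax7 were listed at 0 in every library.

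**Figure D2:**
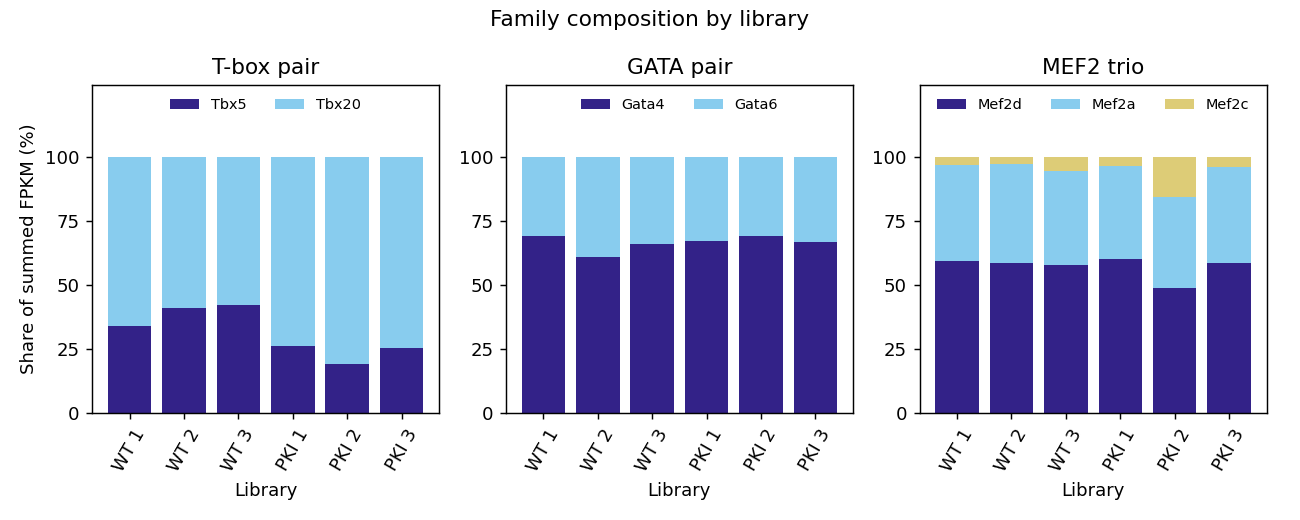
Share of each gene in the summed FPKM of its family (percent) in each of the 6 libraries, for the T-box pair, the GATA pair and the MEF2 trio. Tbx5 is at 34.2% to 42.3% in WT and 19.3% to 26.4% in PKI, Gata4 is at 60.9% to 69.2% across all libraries, and only the PKI 2 bar of the MEF2 trio departs from the rest.

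Gata4 (ENSMUSG00000021944, chromosome 14: 63198922 to 63271692, minus strand), an activator of contractile and natriuretic peptide promoters, had the highest mean of the 10 in both groups, though in PKI its range overlaps that of Nkx2-5, which is above it in PKI 1. It was at 18.8, 17.5 and 18 FPKM in WT against 21.2, 21.2 and 21 in PKI. The groups do not overlap, and the PKI values are nearly level (SD 0.136). Gata4 rose 1.17-fold as deposited (log2 0.21, SE 0.06, 95% interval 0.08 to 0.35, limma adjusted p = 0.0259), which is the change of the median tested gene. After scaling its direction turned (log2 −0.07, adjusted p = 0.442). The call as deposited was also lost on leaving out any library other than WT 1, with adjusted p from 0.0573 (without PKI 2) to 0.0732 (without WT 3). It was lost too with the replicate number as a block in the limma fit (adjusted p = 0.0712).

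Gata6 (ENSMUSG00000005836, chromosome 18: 11052064 to 11085635, plus strand), a close relative of GATA4 with overlapping roles in heart muscle and vessels, did not pass. Its values were 8.41, 11.2 and 9.37 FPKM in WT against 10.4, 9.47 and 10.5 in PKI, with the PKI values inside the WT range. The log2 change was 0.07 (95% interval −0.18 to 0.31) and turned to −0.20 after scaling. An antisense transcript overlaps its start and read 0.977 to 1.35 FPKM, and since the library kit does not mark strand, its reads and those of Gata6 cannot be told apart where they overlap. Gata4 made up 65.3% ± 4.11 of the GATA pair in WT and 67.7% ± 1.32 in PKI (SD, n = 3 each), a difference of 2.39 points that is smaller than the WT spread (exact permutation p = 0.4, adjusted 0.625).

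Nkx2-5 (ENSMUSG00000015579, chromosome 17: 26838664 to 26845009, minus strand), the homeobox gene of heart specification and of the conduction system, was at 13.3, 16.1 and 16.4 FPKM in WT against 22.3, 16.5 and 18.8 in PKI. The highest WT value and the lowest PKI value, that of PKI 2, nearly touch. The log2 change of 0.31 (SE 0.12, 95% interval 0.02 to 0.60) did not pass (adjusted p = 0.0850). It was 0.02 after scaling. Leaving out PKI 2 raised it to 0.41 (adjusted p = 0.0476), so without that library the 2 factors called were Tbx20 and Nkx2-5 rather than Tbx20 and Gata4.

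Hand2 (ENSMUSG00000038193, chromosome 8: 57320983 to 57324633, plus strand), known for its role in growth of the right ventricle, was at 8.72, 10.9 and 9.06 FPKM in WT against 10.9, 11.6 and 11 in PKI. The groups do not overlap, but WT 2 and PKI 1 are almost level. The log2 change of 0.21 (95% interval 0.00 to 0.42) equalled the median of all tested genes, did not pass (adjusted p = 0.0966) and turned to −0.06 after scaling. Leaving out WT 2 brought it to 0.30 (adjusted p = 0.0302). The antisense gene Hand2os1 overlaps Hand2 and read 1.05 to 1.28 FPKM in WT and 1.23 to 1.55 in PKI, with the same limit on strand.

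**Figure D3:**
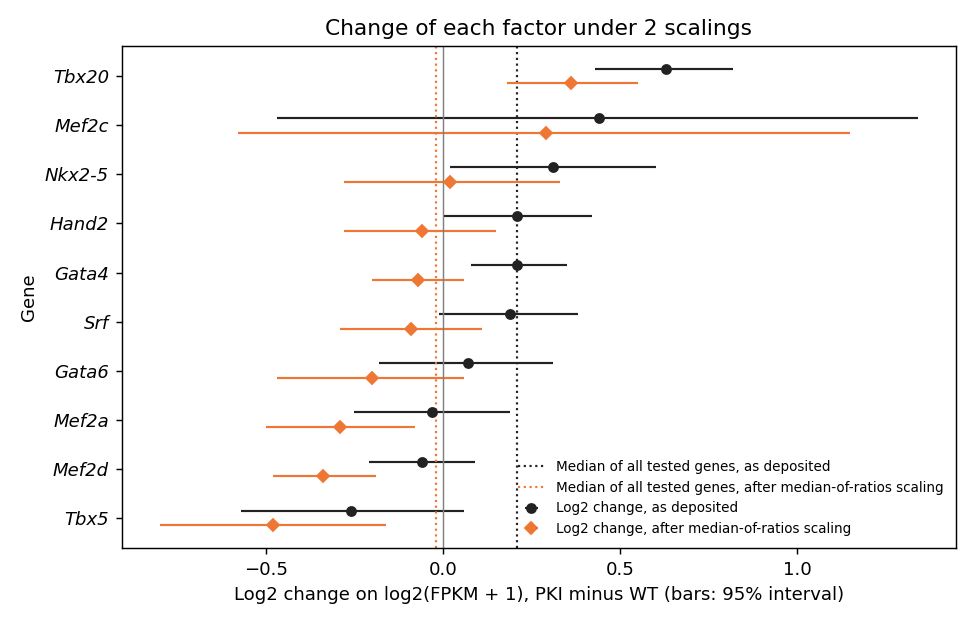
Log2 change of each factor, PKI minus WT, with its 95% interval, as deposited (circles) and after median-of-ratios scaling (diamonds), beside the median of all tested genes under each scaling (dotted lines, 0.21 and −0.02). The Tbx20 interval lies above 0 under both scalings, the intervals of Gata4, Hand2, Srf and Nkx2-5 include the median of all tested genes under both, and those of Mef2a, Mef2d and Tbx5 lie below it under both.

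The 3 MEF2 genes, whose proteins couple calcium and kinase signals to muscle gene expression, did not pass as deposited. Mef2d (ENSMUSG00000001419, chromosome 3: 88142372 to 88172086, plus strand), a mediator of stress-dependent remodelling, was the steadiest in WT, at 12.1, 12.5 and 12.2 FPKM, and was at 11.9, 12.1 and 11.1 in PKI. Its log2 change was −0.06 (95% interval −0.21 to 0.09, adjusted p = 0.448). Mef2d was called lower after scaling (log2 −0.34, SE 0.06, adjusted p = 0.0113), with scaled values of 13.1 or more in each WT library and 10.7 or less in each PKI library.

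Mef2a (ENSMUSG00000030557, chromosome 7: 67231163 to 67372858, minus strand), the form tied to mitochondrial and structural genes of the adult heart, was at 7.54, 8.14 and 7.78 FPKM in WT against 7.13, 8.88 and 7.06 in PKI. PKI 2 is above every WT value and the other PKI libraries are below. The log2 change was −0.03 (adjusted p = 0.823), −0.12 without PKI 2 (adjusted p = 0.208) and −0.29 after scaling (adjusted p = 0.0679). Lysmd4 overlaps Mef2a on the other strand, at 0.932 to 1.67 FPKM.

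Mef2c (ENSMUSG00000005583, chromosome 13: 83504034 to 83667080, plus strand), the form required for heart tube formation, had the lowest listed level of the 10. It was at 0.689, 0.646 and 1.13 FPKM in WT against 0.734, 3.86 and 0.745 in PKI. PKI 2 alone is high, the other 2 PKI values lie inside the WT range, and the mean reached the 1 FPKM needed for testing only through PKI 2. The log2 change of 0.44 (SE 0.39, 95% interval −0.47 to 1.34, adjusted p = 0.382) rests on that library, and without it Mef2c was not tested. PKI 2 also held the hepatocyte genes named above, and its part in the Mef2c value was not tested. Another cardiac factor gene that differed widely among the PKI libraries, named after its values were seen, was Tead1, which binds muscle-specific CATT elements. It was at 8.94, 9.00 and 6.24 FPKM in WT against 0.818, 12.1 and 0.816 in PKI. Unlike Mef2c, it was far below WT in PKI 1 and PKI 3. Mef2d made up 58.7% ± 0.842 of the trio in WT and 55.9% ± 6.23 in PKI (SD, n = 3 each), 60.3%, 48.8% and 58.6% by PKI library (exact permutation p = 0.8, adjusted 0.8). Mef2a made up 37.4% ± 0.764 and 36.4% ± 0.915 (exact p = 0.3, adjusted 0.625), and Mef2c 3.93% ± 1.25 and 7.73% ± 6.75 (exact p = 0.5, adjusted 0.625). Without PKI 2 the Mef2c difference of 3.80 points became −0.0998 and the Mef2d difference of −2.76 points became 0.801.

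Srf (ENSMUSG00000015605, chromosome 17: 46548329 to 46556175, minus strand), which drives actin and immediate early genes through CArG boxes in their promoters, and whose own promoter window holds the boxes shown above, was at 12.2, 12.2 and 10.9 FPKM in WT against 14.7, 12.4 and 13.5 in PKI. The groups do not overlap, but PKI 2 and the 2 higher WT libraries are close. The log2 change of 0.19 (SE 0.08, 95% interval −0.01 to 0.38) did not pass (adjusted p = 0.112) and turned to −0.09 after scaling.

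In WT the levels ran from Gata4 (18.1 FPKM) through Nkx2-5 (15.3), Mef2d (12.3), Srf (11.8), Gata6 (9.67), Hand2 (9.55), Mef2a (7.82), Tbx20 (5.52) and Tbx5 (3.56) to Mef2c (0.822). The library ranges of Mef2d and Srf overlap, as do those of Srf with Gata6 and Gata6 with Hand2, so these neighbours are not separated by their spread. In PKI the ranges of Gata4 and Nkx2-5 overlap. There Srf (13.5) stood above Mef2d (11.7), and Tbx20 (9.05) moved above Mef2a (7.69), though the ranges of the latter pair overlap. Gata4 in WT was above 88.7% of all tested genes and Tbx5 above 52.9%. Of relatives named by symbol, Gata2 and Tbx3 were tested, at 0.985 and 0.852 FPKM in WT against 1.35 and 1.24 in PKI. Neither passed (adjusted p = 0.323 and 0.209). Hand1, Mef2b and Gata1 were listed at 0 in all libraries, and Gata5 averaged 0.0407 FPKM.

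Most of the other cardiac transcription factors did not pass. Of 19 tested genes of that list (43 listed), 1 rose and 1 fell (5.26% each, beside 36.4% and 2.96% of all tested genes). The median log2 change was 0.05, beside 0.21. After scaling 1 was higher and 2 lower (5.26% and 10.5%, beside 7.82% and 9.18%), with a median of −0.14 beside −0.02. Tcf21, a fibroblast and epicardial lineage factor, rose from 1.57, 1.08 and 1.72 to 2.92, 2.70 and 3.29 FPKM (log2 0.70, adjusted p = 0.00548; 0.50 after scaling). Klf15, a repressor of cardiac hypertrophy and regulator of substrate use, fell from 8.64, 11 and 8.42 to 6.85, 6.75 and 7.06 (log2 −0.38, adjusted p = 0.0239, and −0.65 after scaling). The Notch effector gene Heyl was at 2.55 ± 0.274 and 3.22 ± 0.284 FPKM (SD, n = 3 each) and did not pass (adjusted p = 0.0592). Without PKI 2, 3 genes of this list were higher and 1 lower, beside 2693 and 244 of all 9792 genes tested in that fit.

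Among genes for partners and regulators of the 10 factors, 9 of 27 tested rose and 0 fell (33.3% higher, beside 36.4% of all tested genes), and their median log2 change was 0.21. After scaling 3 were higher and 3 lower (11.1% each, beside 7.82% and 9.18%). Without PKI 2, 7 were higher and 1 lower, beside 2693 and 244 of all 9792 genes tested in that fit. The strongest were Ankrd1, a sarcomeric cofactor, at 520.4, 573 and 456 FPKM in WT against 2406, 2684 and 2729 in PKI (adjusted p = 0.000131), and Abra, an actin-binding protein that activates SRF through its myocardin-related coactivators. Abra was at 8.36, 10.4 and 9.36 FPKM in WT against 24.8, 28.5 and 29.7 in PKI (2.95-fold, log2 1.47, adjusted p = 0.000424; 1.19 after scaling). Wwtr1, which encodes the Hippo pathway coactivator TAZ, rose 1.53-fold (9.19 ± 0.505 and 14.1 ± 0.443 FPKM, SD, n = 3 each, adjusted p = 0.00166). The MEF2 repressor genes Hdac5 and Hdac9 and the SRF coactivator gene Myocd, named here after their values were seen, did not pass (log2 −0.02, 0.02 and 0.17).

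Textbook targets of the factors were listed by the factor best known to act on them, and some genes, such as Des, stand on more than 1 list. These lists were chosen with earlier results of these data known, so their counts are descriptions only. Of 30 tested SRF targets 20 rose and 1 fell (66.7% and 3.33%, beside 36.4% and 2.96%), with a median log2 change of 0.61 against 0.21 for all tested genes. After scaling 12 were higher and 3 lower, with a median of 0.38, and without PKI 2, 16 of 27 tested were higher and 1 lower. Srf itself was not called in either fit. The leading members were Des, the muscle intermediate filament gene, Abra and Acta1, the skeletal actin gene. Des was at 251, 231 and 225 FPKM in WT against 453, 457 and 463 in PKI (log2 0.95, adjusted p = 0.000301). Acta1, whose reads may be shared with Actc1, was at 102, 52.1 and 57.7 in WT and 395, 456 and 449 in PKI (adjusted p = 0.000757). The 1 member that fell was Dmd, encoding dystrophin, at 3.65, 3.12 and 2.93 FPKM in WT against 0.823, 1.56 and 1.17 in PKI (log2 −0.96, adjusted p = 0.00299), named after its value was seen. Of 11 tested smooth muscle and pericyte markers, some of them on the same list, 5 rose (45.5%, beside 36.4% of all tested genes; 2 higher and 2 lower after scaling), and their summed level was 392 to 448 FPKM in WT and 681 to 746 in PKI. Skeletal muscle markers summed to 1.78 to 2.25 FPKM in WT and 6.84 to 10.4 in PKI, nearly all of it from Mybpc2, the 1 of 12 that was tested (1.24 to 1.73 and 6.33 to 9.84), while the fast myosin gene Myh4 was at 0. Their part and that of the fibroblast and macrophage markers above was not tested.

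Of 23 tested MEF2 targets 10 rose and 0 fell (43.5% higher, beside 36.4% and 2.96% of all tested genes), with a median of 0.24 beside 0.21. After scaling 5 were higher and 5 lower (21.7% each, beside 7.82% and 9.18%). Besides Des, the intercalated disc gene Xirp2 rose from 29.1, 26.5 and 25 to 91.7, 125 and 106 FPKM (adjusted p = 0.000301), and Nrap, a scaffold of assembling myofibrils, from 60.7, 66.5 and 61.0 to 92.3, 113 and 98.1 (adjusted p = 0.00212). Members such as Myh6 and Ckm, named after their values were seen, did not pass as deposited (log2 0.02 and −0.13). Both were called lower after scaling (log2 −0.28 and −0.43, adjusted p = 0.0442 and 0.00711).

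Targets of the GATA factors, NKX2-5 and the T-box factors went both ways. Of 25 tested, 6 rose and 5 fell (beside 36.4% and 2.96% of all tested genes), with a median log2 change of 0.05, and after scaling 5 were higher and 9 lower (beside 7.82% and 9.18%). Those that rose were led by Ankrd1, by Tnnc1, the cardiac troponin C gene (939, 945 and 946 FPKM in WT, 1418, 1387 and 1379 in PKI, adjusted p = 0.000436), and by the natriuretic peptide gene Nppb (180.0, 126 and 113 in WT, 547, 560.0 and 626 in PKI, adjusted p = 0.000624). The 5 that fell, named after their values were seen, were Atp2a2 and Pln, the calcium pump of the sarcoplasmic reticulum and its inhibitor, the muscarinic receptor gene Chrm2, the troponin I gene Tnni3 and the ventricular light chain gene Myl2. Their log2 changes were −0.45, −0.24, −0.39, −0.27 and −0.17 (adjusted p = 0.00125, 0.0127, 0.00398, 0.00915 and 0.0396).

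**Figure D4:**
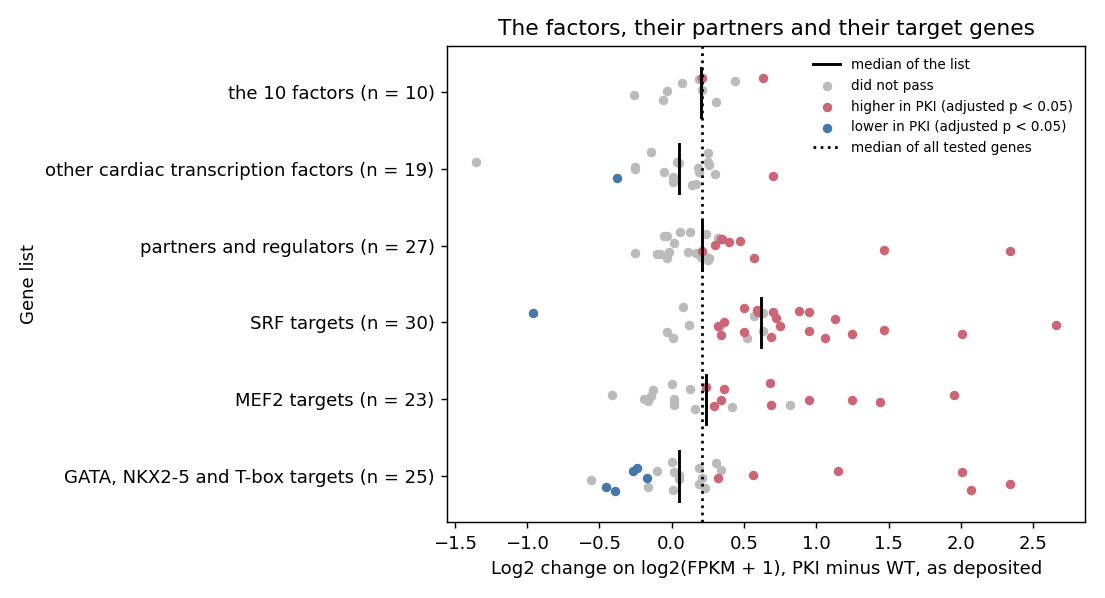
Log2 change as deposited, PKI minus WT, of the 10 factors, other cardiac factors, partners and 3 lists of target genes, 1 point per tested gene, coloured by the call, with each list's median (solid) and that of all tested genes (dotted, 0.21). The 10 factors sit around the dotted line, the SRF targets reach a median of 0.61, and the lowest list spans genes from −0.56 to 2.34 with calls on both sides.

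For each factor, the gene with the most similar pattern over the 6 libraries was sought among genes of at least 5 FPKM, by Pearson's r of log2(FPKM + 1). Such an r mostly follows the group difference where there is one, and 489 genes exceeded 0.95 with Tbx20 and 623 with Gata4. Tbx20 was most like S100a11, a calcium-binding protein gene (r = 0.997), Gata4 like the matrix gene Fbln1 (0.999) and Tbx5 like Fitm1, a lipid droplet gene (0.996). Fitm1 was at 26.0, 34.4 and 30.8 FPKM in WT against 26.7, 18.9 and 26.2 in PKI. Nkx2-5 was most like Prpf19 (0.996), Gata6 like Msi2 (0.989), Hand2 like Sec14l1 (0.990), Mef2a like Sil1 (0.991), Mef2c like Fv1 (0.994), Mef2d like Adk (0.962) and Srf like the noncoding RNA Neat1 (0.978).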

How the data were processed

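RNA from left ventricles was measured in 6 libraries, built per the labels' protocols from Trizol-extracted RNA (1 µg) with an Illumina TruSeq kit. The deposited values are FPKM computed by the authors. Per the submitters' processing notes CASAVA, Bowtie 0.12.2 and build mm9 were used. The sources used here do not give the program that made the FPKM or its annotation. Positions are those of the same Ensembl identifiers in GENCODE M21 (GRCm38). Both deposited gene tables held identical values.

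The absolute depth is unknown. The commonest ratio of low values between libraries (5.07% to 6.81% of low genes) puts the other libraries at 0.8308 to 0.9278 of the depth of WT 1.

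The 9907 genes (of 24705 above 0) that averaged 1 FPKM or more were compared by limma 3.58.1 (R 4.3.3; values as log2(FPKM + 1), variance trend, no block, two-sided, Benjamini-Hochberg adjustment). The fit was tested on simulated data. Family shares were compared by exact permutation. Size factors were 0.898 to 0.922 in WT and 1.1 to 1.13 in PKI. Named genes were the 10 factors, Ppargc1a, the 3 genes of smallest p in each list and the gene most like each factor; others are marked as chosen after their values were seen, as were the markers named and the hepatocyte list. The factors and lists were chosen with earlier results of these data known. Alternatives were 2 other scalings, pseudocounts of 0.1 and 0.5, no filter, a minimum of 5 FPKM, no trend, a block for the replicate number, and each library left out.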

Additional observations from a re-analysis of the deposited data

How the results depend on the processing

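Tbx20 was called higher under all 14 alternatives (log2 0.55 to 0.66 on leaving out a library; 0.38 with quantile normalisation). Over all genes, 3902 were called as deposited, 1684 after median-of-ratios scaling (775 higher, 909 lower), 1515 with quantile normalisation (753 and 762), 1925 at a minimum of 5 FPKM, where fewer genes were tested, and 2372 (without WT 3) to 3439 (without WT 1) on leaving out a library. The count of factors called was 2, and 1 to 2 on leaving out a library; it was 1 without WT 3, PKI 1 or PKI 3. Counts of called genes on leaving out a library were 1 to 4 for other cardiac factors (1 without PKI 1, 4 without PKI 2), 8 to 9 for partners, 17 to 23 for SRF targets, 7 to 10 for MEF2 targets and 10 to 11 for GATA, NKX2-5 and T-box targets. With quantile normalisation 4 other cardiac factors were called (1 higher, 3 lower), 4 partners and 13 SRF targets; 1 other cardiac factor was called without a filter and 1 at a minimum of 5 FPKM.

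Directions turned after median-of-ratios scaling and with quantile normalisation for Gata4 (−0.07 and −0.04), Gata6 (−0.20 and −0.19), Hand2 (−0.06 and −0.05) and Srf (−0.09 and −0.08), by the construction of the scaling. On leaving out a library, Gata6 ranged from −0.02 (without WT 1) to 0.17 and Mef2a from −0.12 to 0.02 (without PKI 1 or PKI 3). Mef2d was called lower with quantile normalisation too (−0.32, adjusted p = 0.0157). Differences of family shares ranged, on leaving out a library, from −1.56 to −0.601 points for Mef2a, −0.0998 to 5.81 for Mef2c, −4.96 to 0.801 for Mef2d, 0.205 to 4.29 for Gata4 and −17.9 to −13.2 for Tbx5. The causes of the other changes were not tested.

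The labels state no pairing by replicate number. Same-numbered libraries deviated from their group means with r of −0.10, 0.00 and 0.05, which shows no pairing but, with 3 libraries per group, cannot exclude it. With the number as a replicate block, 2849 genes were called, and 1 factor, Tbx20 (Gata4 at adjusted p = 0.0712). Tbx5 and Mef2c could not be tested at a minimum of 5 FPKM, nor Mef2c without PKI 2. With no counts, no counting interval can be given for low genes such as Mef2c.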

Other observations

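In PKI 2, 15 tested genes exceeded all 5 other libraries by more than 1 on the log2(FPKM + 1) scale, Mef2c among them, against 1 to 4 genes in each other library. Downward by the same margin PKI 2 did not stand apart, with 8 genes against 3 to 9 in each other library. The summed level of the 12 hepatocyte genes was 123 FPKM in PKI 2 and 7.18 to 12.2 elsewhere. The myoglobin gene Mb, a MEF2 target on the list above, was low in the same library, at 2753 FPKM against 5613 to 6211 in the other 5.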
